A study of Oryza sativa with 6 samples.

Results

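Thioredoxins and glutaredoxins are small proteins that reduce disulfide bonds, and their transcripts were described here in embryonic axes of artificially aged rice seeds. The naming rule took each probe set that the platform annotation assigns to exactly 1 gene, where a symbol or synonym of that gene begins with TRX or GRX, with or without the prefix Os, and goes on with a letter, digit or hyphen. It found 33 of the 17905 genes with a probe set on the array: 14 thioredoxin genes, 18 glutaredoxin genes and TRX1, whose other names (SDG723, OsSET33) mark it as a SET domain gene and not a thioredoxin. TRX1 is given apart for that reason. The rule matched 10 more genes that had no probe set listed, among them the mitochondrial thioredoxin OsTrxo1, the plastid thioredoxin OsTrxx and the glutaredoxin GRXC2, and these were not analysed here.

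The seeds were of Oryza sativa cultivar Nipponbare, and the RNA of their axes had been hybridised to Affymetrix Rice Genome Arrays. The axes came from mature seeds aged for 14 days at 85% relative humidity and either 45 °C (3 arrays) or 40 °C (3 arrays). Before that step all seeds had spent 3 days at 25 °C and 85% humidity, and after it 3 days at 25 °C and 32% humidity. The labels disagree on the warm step, with 15 days in another place. Every array therefore came from aged seeds, and the 25 °C control that the labels name was not analysed here. Whether the 3 samples of a temperature were separate seed lots is not stated in the labels, and the p-values therefore rest on a spread that may be technical.

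Thioredoxins carry a pair of cysteines that reduce a disulfide of a target protein and are then reduced again by a thioredoxin reductase. The h type works mainly outside the plastid with NADPH as electron donor, and in germinating cereal grains such as barley and wheat it is known for reducing storage proteins. The m, f, x and y types work in plastids, where ferredoxin supplies the electrons. Glutaredoxins do similar chemistry with glutathione as the reductant, and many monothiol glutaredoxins also handle iron-sulfur clusters. In plant gene names the letter C or S after GRX refers to an active site that ends in cysteine or in serine.

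The values are log2 expression per probe set, and a change is the 45 °C mean minus the 40 °C mean, with its standard error (SE) and 95% interval from limma. Adjusted p-values are Benjamini-Hochberg values over all 22214 probe sets with a mean of at least 4. A signal depends on the probes, so levels are compared between arrays and never between genes. The figures order genes by signal for display alone.

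In these bulk samples fewer cells of a type and less RNA per cell cannot be told apart. Markers of the embryo and of late seed maturation were abundant, with 8 of 8 measured markers above the minimum and array medians of 12.8 to 12.93 at 45 °C and 12.88 to 13.06 at 40 °C. Endosperm markers were also present, 10 of 11 above the minimum, with array medians of 8.88 to 9.95 at 45 °C and 8.34 to 9.92 at 40 °C. Green tissue markers reached the minimum in 2 of 6 genes and aleurone markers in 4 of 5. The bioB hybridization controls averaged 8.48 to 8.74 on the 45 °C arrays, against 7.94, 6.65 and 6.81 on the 40 °C arrays. On the second 40 °C array the 3-prime signal of the glyceraldehyde phosphate dehydrogenase control exceeded its 5-prime signal by 2.67, against 0.81 to 1.28 at 45 °C and 1.06 and 1.08 on the other 40 °C arrays. The part of these properties in the changes below was not tested.

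Thioredoxin and glutaredoxin transcripts were present in the axes at both temperatures, and no member differed between 45 °C and 40 °C past the adjusted threshold. Of the 32 measured genes of the families, 26 reached the minimum, each through its probe set of highest mean: 13 thioredoxins and 13 glutaredoxins. None passed with limma, at adjusted p from 0.291 to 0.925, and none had an unadjusted p under 0.05. Over all tested probe sets 0.0% passed as well, and 19.2% had an unadjusted p under 0.05 (18.2% with 1 probe set per gene). Estimated folds of 45 °C over 40 °C lay between 0.565 and 1.4. In the values as deposited, the 95% interval of 22 of the 26 genes lay within a 2-fold change in either direction. It did so for 53.5% of all 11639 tested genes. The intervals of OsTrx19, OsTrxh4-1, GRXS5 and GRXS7 reached past that. So did those of another tested probe set of OsTrxh4-2 (-1.03 to -0.24), of GRXS4 (-1.24 to 0.20) and of GRXS10 (-0.78 to 1.37). The count was not made again with each array centred on the median of its tested probe sets.

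**Figure D1:**
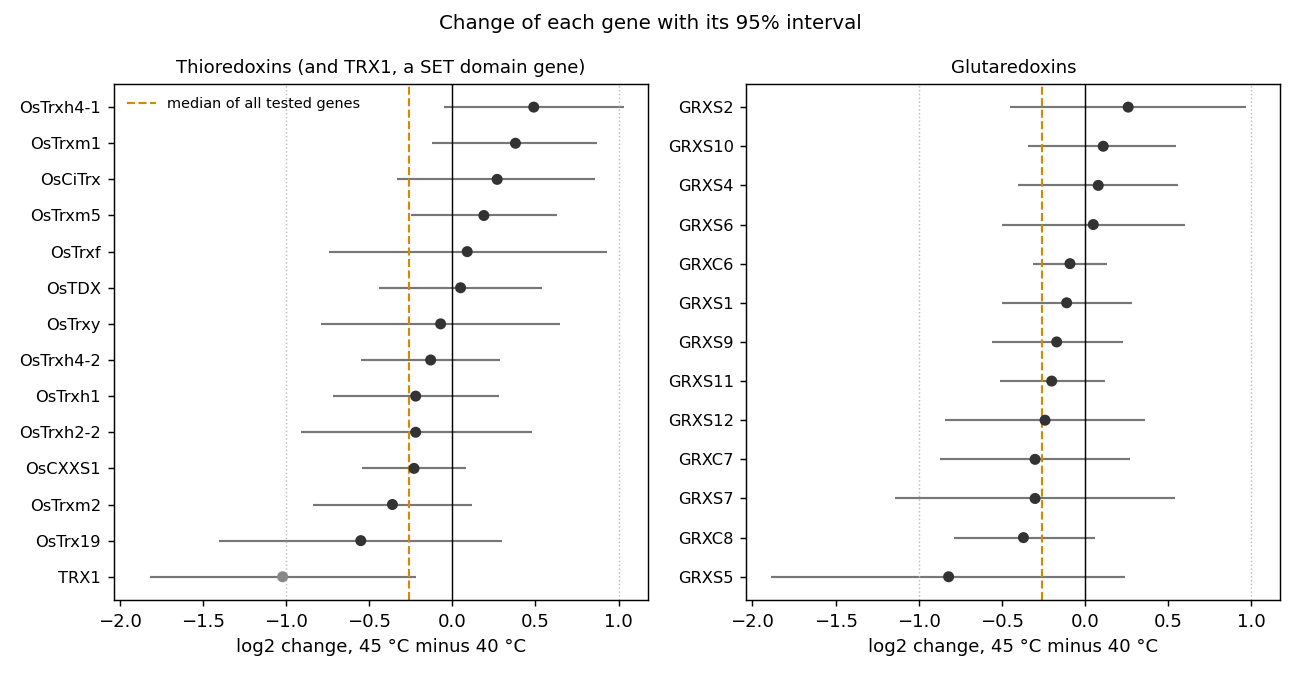
Log2 change (45 °C minus 40 °C, x axis) of each thioredoxin gene, of TRX1 (grey point, left) and of each glutaredoxin gene (right), with bars for the 95% intervals from limma (3 arrays per temperature). The dashed line marks the median change of all tested genes (-0.26) and the dotted lines mark 2-fold changes. The intervals of all 26 thioredoxin and glutaredoxin genes include 0.

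As deposited, the family medians lay nearer to 0 than the median of all genes, but not after median centring, when the median of all genes was -0.01. The deposited values hold a shift common to most tested genes: 78.7% of the 11639 were lower at 45 °C. Their median change was -0.26. Array medians over the tested probe sets were 6.23 to 6.25 at 45 °C, against 6.45 to 6.55 at 40 °C. Over all non-control probe sets they went the other way, 3.20 to 3.21 at 45 °C against 3.08 to 3.13 at 40 °C. The shift therefore did not extend to all probe sets. Thioredoxins had a median change of -0.07, with 7 of 13 lower as deposited. After each array was centred on the median of its tested probe sets, 2 of 13 were lower and the median was 0.19. Median centring means this step throughout, and centring on the median of all probe sets was not tried. Without the second 45 °C array the thioredoxin median was 0.11, and without the second 40 °C array it was 0.04, so its sign rested on single arrays. Glutaredoxins had a median change of -0.17, with 9 of 13 lower as deposited but 4 of 13 lower, and a median of 0.09, after centring. Relative to all genes the medians stood at 0.19 for thioredoxins and 0.09 for glutaredoxins as deposited, and at 0.20 and 0.10 after centring. These are descriptions of a few genes, and no test was made of the families. Signs given below are those of the deposited values, common shift included.

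As deposited, few members separated the arrays by temperature. The arrays did not overlap in 2 of 13 thioredoxin genes (15.4%), namely OsTrxm2 and OsTrxh4-1, and in 1 of 13 glutaredoxin genes (7.7%), GRXC8. Over all genes the share was 25.5%, of which 23.4% were lower and 2.1% higher at 45 °C. These shares include the common shift and were not counted again after median centring.

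**Figure D2:**
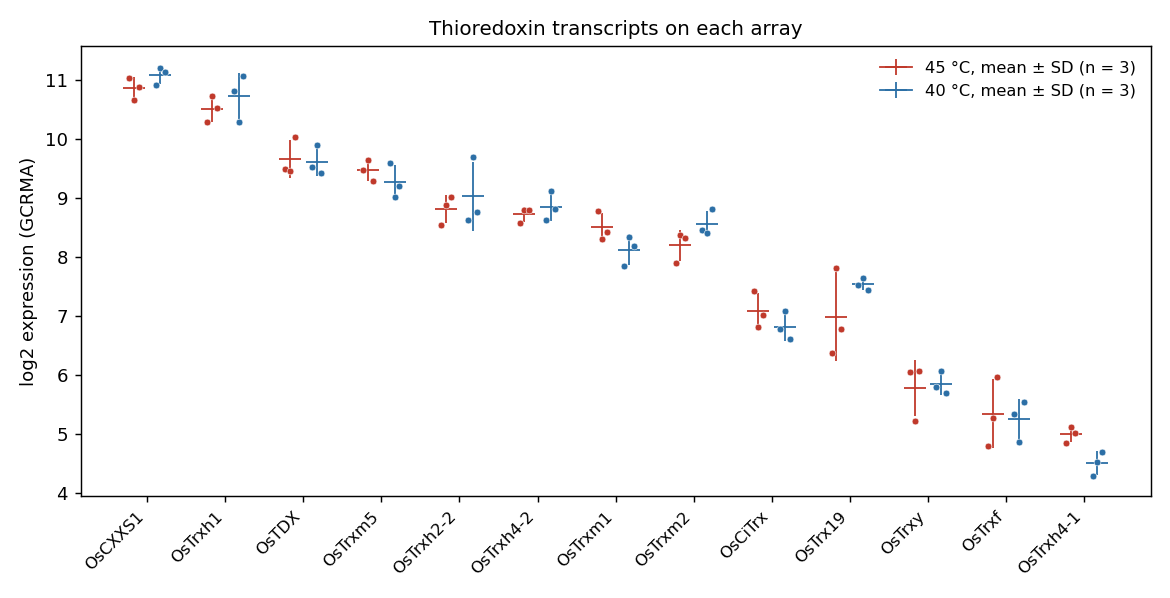
Log2 expression (y axis) of the 13 tested thioredoxin genes on each array, 45 °C in red and 40 °C in blue, with points for arrays and bars for the mean ± SD (n = 3). The arrays of the temperatures overlap in all genes shown except OsTrxh4-1 and OsTrxm2.

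Among the h-type thioredoxins, OsTrxh1, also named RPP13-1 and known as an abundant protein of rice phloem sap, had a strong signal on every array. Its values were 10.28, 10.72 and 10.52 at 45 °C, against 10.82, 10.29 and 11.06 at 40 °C. The temperatures overlapped, and the change was -0.22 ± 0.21 (SE, limma adjusted p = 0.572) with an interval of -0.72 to 0.28. Median centring turned its sign, with a change of 0.04.

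OsTrxh4-1 was the h-type gene with the smallest p. Its values were 4.85, 5.11 and 5.01 at 45 °C, against 4.29, 4.52 and 4.70 at 40 °C. All 3 arrays at 45 °C were above all 3 at 40 °C, but the signal was near the minimum and the change of 0.49 ± 0.23 (SE) did not pass (limma adjusted p = 0.291, interval -0.05 to 1.03). It ranged from 0.38 to 0.59 when each array was left out in turn, and was 0.74 after median centring.

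The closely named OsTrxh4-2 differed between its probe sets. In the probe set of highest mean the values were 8.57, 8.80 and 8.79 at 45 °C, against 8.62, 9.11 and 8.82 at 40 °C. Its change was -0.13 ± 0.18 (SE, limma adjusted p = 0.705). A further tested probe set of the gene, singled out after its values were seen, held 8.10, 8.04 and 8.02 at 45 °C, against 8.48, 8.78 and 8.81 at 40 °C. These arrays did not overlap, and the change was -0.64 ± 0.17 (SE) with an unadjusted p of 0.00623 and a limma adjusted p of 0.179. It was the 1 probe set with an unadjusted p under 0.05 among the 32 tested probe sets of the families. Both have identifiers that mark probes shared with other transcripts, so the gene behind each signal is uncertain. The change of the further probe set ranged from -0.74 to -0.58 when each array was left out in turn. After median centring it was -0.38. The limma adjusted p of this probe set ran from 0.0689 to 0.366 over all settings tried.

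OsTrxh2-2 had a change of -0.22 ± 0.30 (SE, limma adjusted p = 0.698), with 9.70 on the second 40 °C array, against 8.54 to 9.01 at 45 °C and 8.62 and 8.76 on the other 40 °C arrays. Without that array its change was 0.12. OsTrxh5 was below the minimum, with means of 1.74 at 45 °C and 1.78 at 40 °C in the probe set of higher signal. Its other probe set, also below the minimum, was lower at 45 °C without overlap, with means of 1.38 and 1.98.

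The m-type genes, which in leaves regulate enzymes of the chloroplast, had estimates of unlike sign. OsTrxm1 had values of 8.78, 8.30 and 8.42 at 45 °C, against 7.84, 8.34 and 8.19 at 40 °C. The groups overlapped by a narrow margin, and the change was 0.38 ± 0.21 (SE, limma adjusted p = 0.355). OsTrxm2 had values of 7.90, 8.37 and 8.32 at 45 °C, against 8.46, 8.41 and 8.81 at 40 °C. Here every 45 °C array was below every 40 °C array, and the change was -0.36 ± 0.21 (SE, limma adjusted p = 0.358). The intervals, -0.12 to 0.87 for OsTrxm1 and -0.84 to 0.12 for OsTrxm2, overlap, and the difference between these genes was not tested. After median centring the changes were 0.63 for OsTrxm1 and -0.10 for OsTrxm2. OsTrxm5 had a change of 0.19 ± 0.19 (SE, limma adjusted p = 0.575), and both of its probe sets may also read related transcripts.

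The remaining plastid types had changes smaller than, or near, their errors. OsTrxf, known in leaves for activating carbon fixation enzymes in light, had a change of 0.09 ± 0.36 (SE), and OsTrxy, a type that in Arabidopsis passes electrons to peroxiredoxins, had -0.07 ± 0.31 (SE). OsCiTrx, named after the tomato thioredoxin that binds the resistance protein Cf-9, had a change of 0.27 ± 0.25 (SE). The limma adjusted p-values were 0.902, 0.915 and 0.563 in that order. Over the 6 measured plastid types (m, f, y and CiTrx) 4 of 6 were higher at 45 °C as deposited and 5 of 6 after median centring, none past the threshold.

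OsCXXS1 and OsTDX are atypical thioredoxins. OsCXXS1, whose name gives an active site with serine in place of the second cysteine, had values of 11.03, 10.66 and 10.88 at 45 °C, against 10.92, 11.20 and 11.13 at 40 °C. The first array of each temperature lay inside the other group, and the change was -0.23 ± 0.13 (SE, limma adjusted p = 0.369) with an interval of -0.54 to 0.08. After median centring it was 0.03.

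OsTDX, a thioredoxin joined to tetratricopeptide repeats whose Arabidopsis counterpart acts as a chaperone under heat, had values of 9.49, 9.46 and 10.04 at 45 °C, against 9.53, 9.90 and 9.42 at 40 °C. Its arrays were mixed, and the change was 0.05 ± 0.21 (SE, limma adjusted p = 0.914), with -0.14 without the third 45 °C array. OsTrx19 had a change of -0.55 ± 0.37 (SE, limma adjusted p = 0.42), with -0.24 without the first 45 °C array and -0.97 without the second. Its values spread from 6.37 to 7.82 at 45 °C, against 7.44 to 7.65 at 40 °C, so that 1 of 3 arrays at 45 °C was above all those at 40 °C.

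TRX1 is named for trithorax, the fly regulator that methylates histones, and belongs to the SET domain genes by its synonyms. Its values were 5.33, 4.08 and 4.61 at 45 °C, against 5.63, 5.72 and 5.74 at 40 °C. The signal at 45 °C was near the minimum. All 45 °C arrays were below all 40 °C arrays, and the change was -1.02 ± 0.34 (SE), with an unadjusted p of 0.0191 and a limma adjusted p of 0.207. The change ranged from -1.35 to -0.72 when each array was left out in turn, and was -0.76 after median centring. Its other 2 probe sets were below the minimum, with means of 1.51 and 3.18 at 45 °C, against 1.59 and 3.08 at 40 °C. Counting TRX1 as a thioredoxin moved the family median to -0.10.

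**Figure D3:**
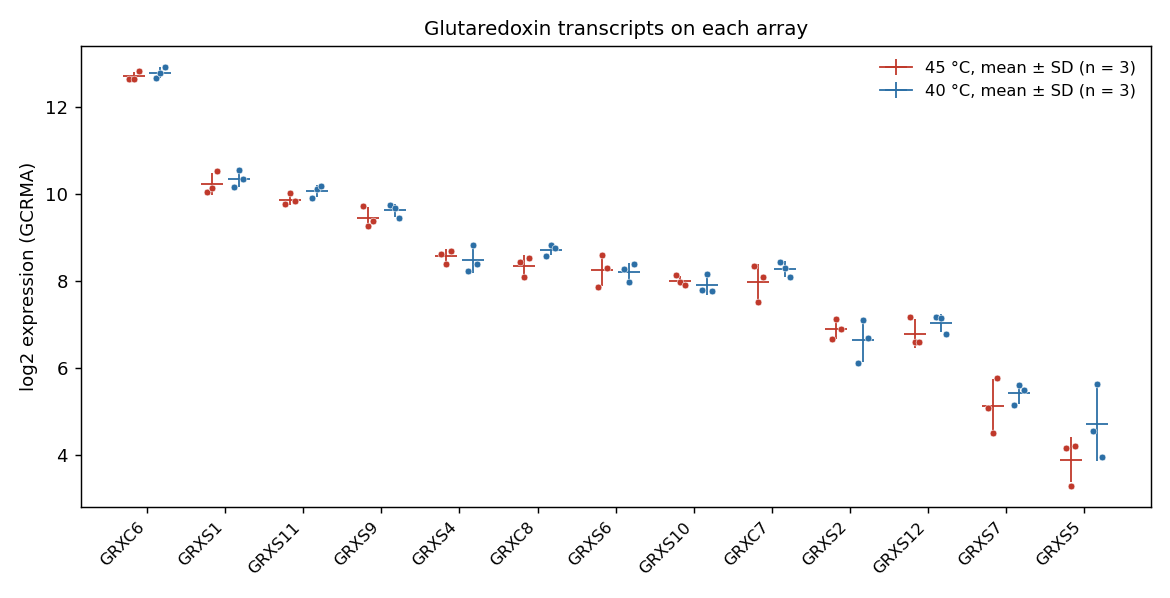
Log2 expression (y axis) of the 13 tested glutaredoxin genes on each array, 45 °C in red and 40 °C in blue, with points for arrays and bars for the mean ± SD (n = 3). GRXC8 is the 1 gene whose arrays do not overlap between temperatures, and GRXS5 spreads from 3.29 to 4.21 at 45 °C and from 3.95 to 5.63 at 40 °C.

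Among the glutaredoxins named for an active site with cysteine, GRXC6, also named RASC8, had a strong signal on every array. Its values were 12.65, 12.66 and 12.83 at 45 °C, against 12.67, 12.79 and 12.93 at 40 °C. The groups overlapped, and the change was -0.09 ± 0.10 (SE, limma adjusted p = 0.616). Its interval, -0.31 to 0.13, was the narrowest among the 26 genes' probe sets of highest mean, and after median centring its change was 0.17.

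GRXC8 had the smallest p of the glutaredoxins. Its values were 8.44, 8.09 and 8.54 at 45 °C, against 8.58, 8.83 and 8.77 at 40 °C. Every 45 °C array was below every 40 °C array, and the change of -0.37 ± 0.18 (SE) did not pass (limma adjusted p = 0.308, interval -0.79 to 0.06). It stayed between -0.46 and -0.23 when each array was left out in turn, but was -0.11 after median centring.

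GRXC7 had values of 8.34, 7.53 and 8.09 at 45 °C, against 8.45, 8.31 and 8.09 at 40 °C. Its second 45 °C array was the lowest, and the change was -0.30 ± 0.24 (SE, limma adjusted p = 0.504), with -0.07 without that array. The other 4 measured C-named genes were below the minimum: GRXC1, GRXC3, GRXC10 and GRXC15, with group means from 1.24 to 3.56. GRXC3 is also named ROXY2, after the Arabidopsis ROXY genes of flower development, and its means were 3.53 at 45 °C and 3.56 at 40 °C.

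Of the 11 measured S-named glutaredoxins, 10 reached the minimum, and 6 of 10 were lower at 45 °C as deposited but 2 of 10 after median centring. GRXS1 had values of 10.06, 10.14 and 10.53 at 45 °C, against 10.17, 10.55 and 10.35 at 40 °C. The groups overlapped, with a change of -0.11 ± 0.17 (SE, limma adjusted p = 0.717) that was 0.14 after median centring. GRXS11 had values of 9.77, 10.02 and 9.84 at 45 °C, against 9.92, 10.12 and 10.18 at 40 °C. Its change was -0.20 ± 0.14 (SE, limma adjusted p = 0.441), and its other probe set gave -0.19 ± 0.19 (SE), so the probe sets of this gene were alike.

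GRXS5 had a weak signal and varied between arrays. Its values were 4.17, 3.29 and 4.21 at 45 °C, against 4.56, 5.63 and 3.95 at 40 °C. The groups overlapped and the 45 °C mean of 3.89 was under the minimum, so the change of -0.82 ± 0.46 (SE, limma adjusted p = 0.344) is uncertain in size. Without the second 40 °C array it was -0.37, and its interval, -1.89 to 0.24, was the widest among the 26 genes' probe sets of highest mean.

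In each of the other tested S-named genes the arrays of the temperatures overlapped. GRXS9 stood at -0.17 ± 0.17 (SE), GRXS12 at -0.24 ± 0.26 (SE) and GRXS7 at -0.30 ± 0.36 (SE). GRXS6 stood at 0.05 ± 0.24 (SE), GRXS2 at 0.26 ± 0.31 (SE), GRXS10 at 0.11 ± 0.19 (SE) and GRXS4 at 0.08 ± 0.21 (SE). Their limma adjusted p-values ran from 0.585 for GRXS9 to 0.925 for GRXS6. The identifiers of the GRXS2 and GRXS10 probe sets used here mark probes shared with other transcripts. GRXS3 was below the minimum and not tested, with means of 1.61 at 45 °C and 2.38 at 40 °C and no overlap between the arrays. GRXC1 and GRXC15, also below the minimum, had no overlap in the other direction. Their means were 3.03 and 1.62 at 45 °C, against 2.59 and 1.24 at 40 °C.

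**Figure D4:**
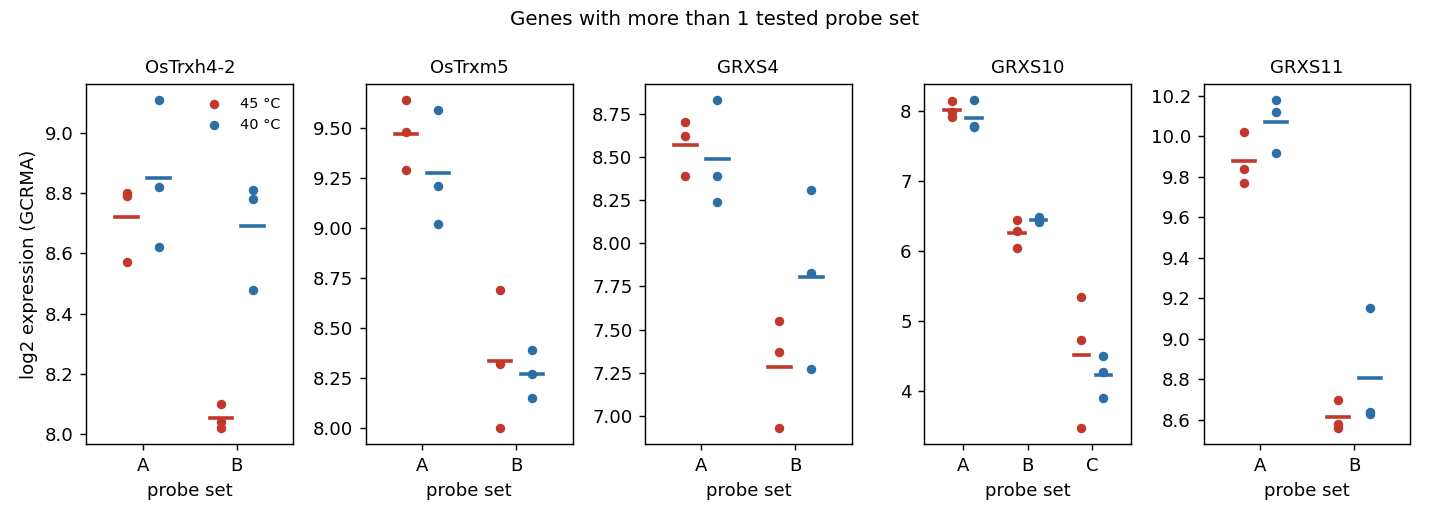
Log2 expression (y axis, scaled for each gene) of the 5 family genes with more than 1 tested probe set, with a column pair for each probe set (A has the highest 40 °C mean), 45 °C in red and 40 °C in blue, points for the 3 arrays and lines for means. The 45 °C arrays lie below the 40 °C arrays in 1 probe set, OsTrxh4-2 B, with a change of -0.64 against -0.13 in OsTrxh4-2 A.

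Several genes could be read in more than 1 tested probe set, 5 in all. For OsTrxh4-2, OsTrxm5 and GRXS11 the signs were the same, although the sizes for OsTrxh4-2 differed as given above. For GRXS4 the probe set of highest mean changed by 0.08 and the other by -0.52 ± 0.31 (SE, limma adjusted p = 0.376), of opposite sign. GRXS10 had changes of 0.11, -0.19 and 0.29 in its 3 probe sets, none past the threshold.

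Replicates of a family gene varied about as much as those of other genes. The median SD of a gene was 0.25 at 45 °C and 0.25 at 40 °C for thioredoxins and 0.24 at 45 °C and 0.21 at 40 °C for glutaredoxins, against 0.29 at 45 °C and 0.28 at 40 °C over all genes. Within the 40 °C group the second array held the highest value in 8 of 13 thioredoxins and 7 of 13 glutaredoxins, against 57.8% of all genes. This was the array with the high 3-prime to 5-prime difference given above.

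**Figure D5:**
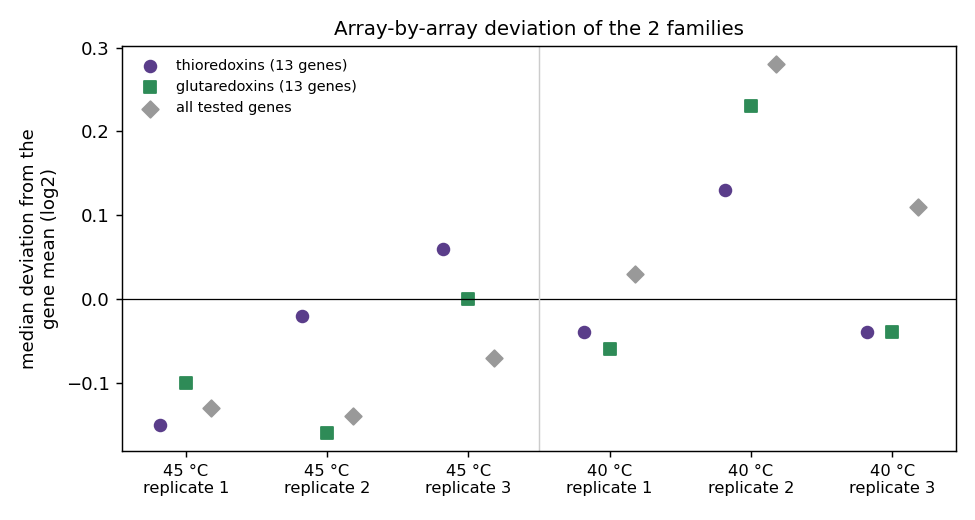
Median deviation of the genes from their own mean over the 6 arrays (y axis, log2) on each array, for 13 thioredoxins, 13 glutaredoxins and all tested genes. The second 40 °C array is highest in each, at 0.13, 0.23 and 0.28, and the other 40 °C arrays stand at -0.06 to -0.04 for the families and at 0.03 and 0.11 for all genes.

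The enzymes that thioredoxins and glutaredoxins work with showed no call either. Of 17 measured partner genes 16 were tested, 12 of 16 were lower at 45 °C as deposited but 4 of 16 after median centring, and none passed (0.0% of all tested probe sets), with a median change of -0.10. As deposited, the arrays did not overlap in 2 of 16 genes (12.5%, against 25.5% of all genes). Of the partner genes 15 of 16 had intervals within a 2-fold change, as deposited and in the probe set of highest mean. Another probe set of PRXIIC (-1.07 to -0.34) and of MSRB1 (-0.36 to 1.35) reached past it.

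Thioredoxin reductases, which keep thioredoxins reduced, had 4 tested genes, of which 3 were lower at 45 °C as deposited but 1 after median centring. FTR-B, a subunit of the ferredoxin-dependent reductase of plastids, had a change of -0.44 ± 0.29 (SE, limma adjusted p = 0.412), with -0.22 without the second 45 °C array and -0.72 without the third. OsNtrC, a plastid reductase with a thioredoxin domain of its own, had -0.23 ± 0.25 (SE, limma adjusted p = 0.613). Median centring turned the sign of OsNtrC to 0.02.

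Peroxiredoxins, which take electrons from thioredoxins to remove peroxides, had 4 of 5 genes tested, of which 3 were lower at 45 °C as deposited but 1 after median centring. PRXIIC had values of 10.03, 10.05 and 10.27 at 45 °C, against 10.23, 10.73 and 10.64 at 40 °C. The third 45 °C array lay just above the first 40 °C array, and the change was -0.42 ± 0.16 (SE) with an unadjusted p of 0.0348 and a limma adjusted p of 0.236. After median centring the change was -0.16. The identifier of this probe set marks probes shared with other transcripts. A further probe set of the gene, singled out after its values were seen, had -0.70 ± 0.16 (SE, limma adjusted p = 0.172) without overlap. Its identifier marks no shared probes. PRXIIF, the mitochondrial type, had a change of 0.19 ± 0.18 (SE, limma adjusted p = 0.553).

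RGRC2, a glutathione reductase, which keeps the reductant of glutaredoxins reduced, had values of 8.61, 8.87 and 8.82 at 45 °C, against 9.22, 9.19 and 9.22 at 40 °C. All 45 °C arrays were below all 40 °C arrays, and the change was -0.44 ± 0.15 (SE), or 0.738-fold, with a limma adjusted p of 0.205, the smallest among the partner genes' probe sets of highest mean. It ranged from -0.49 to -0.36 when each array was left out in turn, and the limma adjusted p from 0.0961 to 0.544 over all settings tried. After median centring the change was -0.18.

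The gene gcs encodes the enzyme of the first step of glutathione synthesis. It had a change of 0.26 ± 0.16 (SE, limma adjusted p = 0.392) in the probe set of highest mean. Its other 2 probe sets gave -0.53 ± 0.15 (SE) and -0.18 ± 0.18 (SE), so that its direction depended on the probe set. The probe set at -0.53, singled out after its values were seen, had no overlap between the temperatures (limma adjusted p = 0.184). Its identifier marks no shared probes. Of 6 methionine sulfoxide reductases, which repair oxidised methionine with electrons from thioredoxins, 5 were lower at 45 °C as deposited but 1 after median centring. MSRB3 had a change of -0.43 ± 0.20 (SE, limma adjusted p = 0.29) without overlap, but -0.17 after median centring. MSRB5 had -0.22 ± 0.15 (SE, limma adjusted p = 0.417), which median centring turned to 0.04. No gene name in the table matched the pattern for glutathione peroxidases.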

How the data were processed

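The authors made the deposited log2 values with GCRMA, per the submitters' processing notes, and give 1 value for each probe set on each array. The version and the genome build are not given in the sources used here. The table held 57381 probe sets, including 123 controls. The platform annotation gave exactly 1 gene for 22436 probe sets, and all 17905 genes were found in the name table of assembly ASM3414082v1, used for names alone. RNA had been amplified from 50 ng before labelling, per the labels' protocols.

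Probe sets with a mean of at least 4 were fitted by lmFit and trended eBayes of limma 3.58.1, run in R 4.3.3. The two-sided test set 45 °C against 40 °C, and p-values were adjusted by Benjamini-Hochberg and called at 0.05. The step was tested on simulated data with independent noise on each array and no array-wide shift. That test cannot show how the step performs on arrays such as these. No detection calls were used, and precision is limited by the 6 arrays.

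Members, lists and tests were chosen with earlier results of these data known. Values on every array were to be given for the 3 genes of highest mean and the 4 of smallest p per family, and other genes by their change. OsTrxh4-2, OsTrx19, OsTrxh2-2 and TRX1 were described further after their values were seen, and PRXIIC and RGRC2 are given by array as well. TRX1 was set apart, and genes of other families with similar names left out of the partner and marker lists (GSH-FDH, for example), by name alone. Settings tried were 2 filters, 3 scalings of the tested probe sets, no trend, array weights, a replicate block and leaving out each array.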

Additional observations from a re-analysis of the deposited data

How the results depend on the processing

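No thioredoxin, glutaredoxin or redox partner gene passed under any setting tried. Over all probe sets 193 passed with array weights (15 higher and 178 lower at 45 °C), and 0 to 69 when leaving out 1 array, with 69 without the second 40 °C array. The thioredoxin median was 0.19 after median centring and 0.15 after quantile normalization, and -0.21 to 0.11 when leaving out 1 array. The glutaredoxin median was 0.09 with centred arrays, 0.01 with quantile normalization, 0.01 with cyclic loess, and between -0.17 and -0.07 with 1 array left out. Under the same scalings the median of all genes was -0.01, -0.07 and -0.08.

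Signs of small changes turned. With median centring these were OsCXXS1 (0.03), OsTrxh1 (0.04), OsTrxh2-2 (0.04), OsTrxh4-2 (0.13), OsTrxy (0.19), GRXC6 (0.17), GRXS1 (0.14), GRXS11 (0.06), GRXS12 (0.01), GRXS9 (0.09), OsNtrC (0.02) and MSRB5 (0.04). With quantile normalization they were OsTrxh4-2 (0.08), OsTrxy (0.15), GRXS1 (0.05), GRXS12 (0.01), GRXS9 (0.02) and OsNtrC (0.02). With cyclic loess they were OsTrxh4-2 (0.08), OsTrxy (0.10), GRXS1 (0.05), GRXS12 (0.01), GRXS9 (0.02) and OsNtrC (0.02). With array weights they were OsTrxf (-0.06), OsTrxh2-2 (0.04), OsTrxy (0.05) and GRXS6 (-0.07). Leaving out 1 array gave -0.21 to 0.21 for OsTrxy, -0.22 to 0.37 for OsTrxf, -0.14 to 0.19 for OsTDX, -0.42 to 0.12 for OsTrxh2-2, -0.13 to 0.24 for GRXS6, -0.63 to 0.01 for GRXS7 and -0.04 to 0.26 for GRXS4. The cause of these turns was not tested. Cyclic loess, the median with TRX1 and the other probe set of OsTrxh4-2 were chosen after seeing the data.

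Deviations of same-numbered arrays correlated at -0.143 to 0.0303, and those of arrays with unlike numbers at -0.1602 to 0.1295. So few arrays cannot settle whether the numbers pair the samples, and the main fit used no pairing. With the replicate number as a block 0 probe sets passed (smallest limma adjusted p 0.283). In this balanced design the block leaves every change as it was, so the signs of the 26 family genes could not turn. Signal near the floor limits GRXS5, OsTrxh4-1 and TRX1, and the 6 genes under the minimum were not tested.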
